A study of Mus musculus with 6 samples.

Results

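The messages of the cytosolic ribosome were compared between cultured mouse CD8+ T cells that received vehicle and cells that received AOA. Members were chosen by gene symbol: every gene whose symbol starts with Rpl or Rps and a digit, together with Rplp0, Rplp1, Rplp2 and Rpsa, leaving out the ribosomal S6 kinases and Rps4x. This gave 89 of the 11922 genes in the deposited count table, and 87 of them were among the 11759 genes that passed the low-count filter and were tested. They were 30 proteins of the small subunit, 42 of the large subunit, 3 proteins of the stalk, 5 paralogs, 8 copy genes and Rps19bp1, which shares the prefix but encodes a binding partner of Rps19 and no ribosomal protein. Rpl26, a protein of the large subunit, was not analysed here. The rule left out 9 genes, 8 of them S6 kinase genes and the other Rps4x.

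Splenic CD8+ T cells of 3 C57BL6/J mice, isolated with beads against CD8a, were activated for 72 hours with beads carrying antibodies to CD3 and CD28 and were then expanded for 4 days, with interleukin-2 at 100 units/ml throughout. The vehicle group received water and the AOA group 0.25 mM AOA (aminooxyacetic acid), an inhibitor of the enzymes that need pyridoxal phosphate, the active form of vitamin B6, over all 7 days. Cells of each mouse went into both arms, which gave 3 libraries of messenger RNA with vehicle and 3 with AOA, and replicate numbers are those of the mice. Both groups shared the strain, the beads and interleukin-2 and differed in AOA alone, mice were older than 6 weeks, and the cells were studied in culture only.

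A ribosome is built of a small subunit, which reads the messenger RNA, and a large subunit, which joins amino acids. Each subunit is an RNA core with many proteins that are needed in equal numbers. In mammals most of these proteins have a single active gene and many processed pseudogenes. Their short, abundant messages carry a terminal oligopyrimidine (TOP) tract, a C followed by a run of C and T at the very start, through which mTOR and Larp1 control their translation. T cells make many ribosomes when they are activated, since growth and division need new protein.

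The start of these genes was read from RefSeq sequences of GRCm38.p6, the assembly that mm10 also names, to show the tract beside the genes whose values are given below. Each line holds 30 bases, 10 before and 20 from a listed transcription start, and capitals mark the longest run of at least 5 pyrimidines that begins with C and lies within 10 bases of that start. Rps6, Rpl18, Rpl38 and Rps27 hold a run at or within 2 bases of the start, while Rps25 and Rpl7l1 hold none in this window. Rps27l has 2 listed starts and holds runs at the first of them only. The longest, which is marked, lies 10 bases ahead, and a shorter, unmarked run of 5 pyrimidines begins within 2 bases of that start.
Rps6, chr4:86857348-86857377, minus strand: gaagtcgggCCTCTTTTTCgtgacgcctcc
Rpl18, chr7:45718061-45718090, plus strand: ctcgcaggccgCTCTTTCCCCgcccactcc
Rpl38, chr11:114668570-114668599, plus strand: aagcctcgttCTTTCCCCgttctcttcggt
Rps27, chr3:90213629-90213658, minus strand: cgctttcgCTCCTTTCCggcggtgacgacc
Rps27l, chr9:66946076-66946105, plus strand: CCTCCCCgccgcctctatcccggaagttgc
Rps27l, chr9:66946403-66946432, plus strand: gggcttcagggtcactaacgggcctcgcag
Rps25, chr9:44407704-44407733, plus strand: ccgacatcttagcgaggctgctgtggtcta
Rpl7l1, chr17:46782637-46782666, minus strand: gctgcgcaagcgcagtagctgaagcaccgg

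Of 55 ribosomal proteins of the subunits and the stalk with a listed start, 34 (61.8%) held such a run, against 37.6% of all tested genes with an entry. A run that began within 1 base of the start was found in 18 (32.7%) of them and in 8.92% of all. The search was made on the strand of the gene, and a match shows only that these letters are there. Starts used in these cells may differ from those listed, so genes without a run here may still carry the tract. The 34 genes with a run had a median log2 fold change between the groups of -0.06 (range -0.48 to 0.53) and the 21 without a run a median of -0.09 (range -0.41 to 0.68). Rpl29 has no entry.

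Library totals were 12881962 to 18934869 counts with vehicle and 18696114 to 21997078 with AOA. Values below are CPM, the reads of a gene scaled to a common library size by TMM, and a log2 fold change is AOA relative to vehicle from the quasi-likelihood test of edgeR, with p-values adjusted over all genes tested and a threshold of 0.05. AOA replicate 1 stands apart from AOA replicates 2 and 3 in these genes, so the values that it moves most are also given without it. All 5 T cell and CD8 marker genes (Cd3d, Cd3e, Cd3g, Cd8a and Cd8b1) were present, with summed levels of 2908 to 3737 CPM with vehicle and 3994 to 4645 CPM with AOA. Cd8a (654 to 914 and 1455 to 1700 CPM) and Cd8b1 (779 to 1094 and 1339 to 1615 CPM) were called higher with AOA. The values of Cd3d, Cd3e and Cd3g had log2 fold changes of -0.13, -0.27 and -0.31, and none of these 3 was called. Of the markers of other cells in the table, those of myeloid cells (3 of 5, Itgam among them) summed to 55.2 to 66.5 CPM with vehicle and 4.18 to 7.77 CPM with AOA, and Lyz2 was at 0 in vehicle replicates 1 and 3. Those of NK cells (4 of 4, with Ncr1 at 0 in the same 2 libraries) summed to 264 to 391 and 155 to 229 CPM, those of CD4 T cells (2 of 2) to 77.4 to 132 and 21.2 to 30.5 CPM, and those of B cells (4 of 5) to 12.6 to 16.6 and 22.6 to 30.7 CPM. Erythroid markers were not analysed here. The part of these cells in the results was not tested. In such bulk libraries, fewer cells of a type and less RNA per cell cannot be told apart.

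From 8.07% to 11.8% of all reads counted fell on the members. They held 10.02%, 8.95% and 9.83% of the counts of vehicle replicates 1, 2 and 3, and 11.8%, 8.07% and 8.11% of those of AOA replicates 1, 2 and 3. The AOA libraries thus held both the highest and the 2 lowest shares. The means were 9.60% ± 0.57 (SD, n = 3) with vehicle and 9.32% ± 2.12 with AOA, and the difference of -0.28 percentage points was smaller than either SD. Within mouse 1 the share was 1.75 points higher with AOA, while in mouse 2 and mouse 3 the difference was -0.88 and -1.72 points.

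AOA replicate 1 was also high gene by gene. It was the highest of the AOA libraries in 87 of 87 tested members, compared with 43.2% of all tested genes and 76.0% of 2131 other genes of similar length (439 to 1589 bases in the length column, the 10th to 90th percentile of the members). It was the highest of all 6 libraries in 67 members (77%), against 24.9% of all tested genes and 51.3% of genes of similar length. The median excess of AOA replicate 1 over the mean of AOA replicates 2 and 3 was 0.63 on the log2 scale for the members, 0.36 for genes of similar length and 0.02 for all tested genes. The members are short: their median length was 697 bases, and that of all tested genes 2900 bases. The median difference between AOA and vehicle over the members was 0.25 in mouse 1, -0.12 in mouse 2 and -0.37 in mouse 3.

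**Figure D1:**
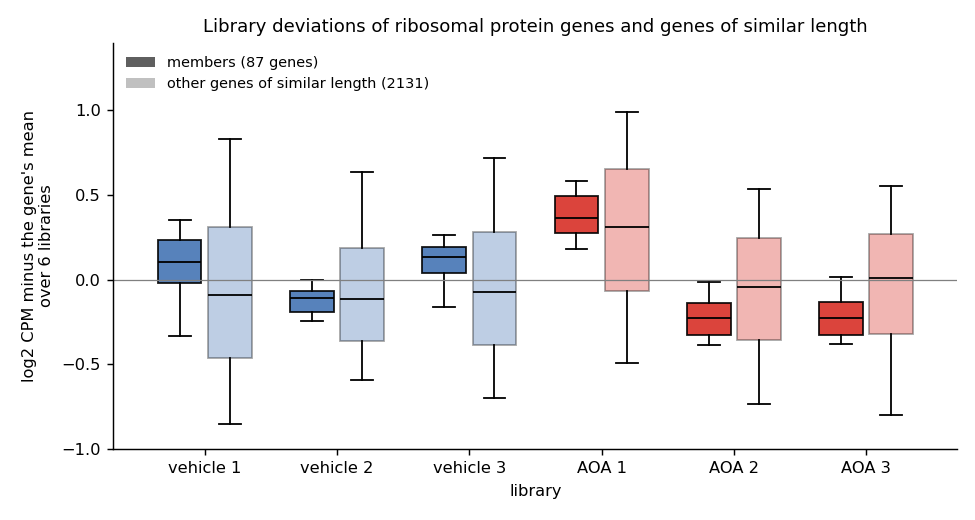
Deviation of each gene from its own mean over the 6 libraries (log2 CPM, vertical axis) by library, for the 87 tested members (dark boxes) and 2131 other genes of similar length (light boxes). Boxes show the quartiles with the median, and whiskers the 10th and 90th percentiles. The medians of the members in vehicle replicates 1 to 3 were 0.10, -0.11 and 0.14, and those in AOA replicates 1 to 3 were 0.37, -0.23 and -0.23.

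Most ribosomal protein messages did not pass the test, in cultures where most of the other genes did. Of 87 members, 5 were called (5.75%), against 53% of all tested genes and 53.9% of genes of similar length. Of the called members described here, Rps25 of the small subunit and the paralogs Rps27l and Rpl7l1 rose, and Rpl29 of the large subunit fell. The share called higher was 26.2% over all genes and the share called lower 26.8%. At an unadjusted p under 0.05 the members called were 8, against 59% of all genes. Without AOA replicate 1 the members called went from 5 to 24, of which 3 were higher and 21 lower, where 50% of all genes were called (25.1% higher and 25% lower), and adding the replicate block for the mouse left 6 members called (41.2% of all genes). With the trend of the counts with gene length removed from each library, 32 members were called, 3 higher and 29 lower, against 55.4% of all genes (27.5% higher and 27.9% lower). Leaving out vehicle replicate 2 gave 10 calls among the members, 7 higher and 3 lower (57.6% of all genes), and leaving out vehicle replicate 1 or vehicle replicate 3 gave 3, all higher (41.9% and 43.4% of all genes). DESeq2 called 10 members, 9 of them higher, and 53.6% of all genes.

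The changes were also small. The median log2 fold change was -0.06 over the members, with quartiles of -0.21 and 0.12, -0.02 over all tested genes and 0.17 over genes of similar length. The median absolute value was 0.18 for the members and 0.64 for genes of similar length, while the median standard error was 0.21 for both. For 78 members (89.7%) the 95% interval lay within a doubling or halving of the level, against 39.5% of genes of similar length. Only 2 members, Rps27l and Rpl7l1, had an absolute log2 fold change of 1 or more (2.3%, against 27.2% of all genes). Without AOA replicate 1 the median of the members was -0.28, and with the length trend removed -0.29. It was 0.06 without AOA replicate 2 and 0.04 without AOA replicate 3, so its sign rests on single libraries.

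The ranges of the 2 groups were apart in 13 members (14.9%, against 62.1% of all tested genes), with 11 higher and 2 lower with AOA (31% and 31.1% of all tested genes). The higher ones included Rps3a1, Rps25, Rps26, Rpl10, Rpl15, Rpl31, Rps27l, Rpl7l1 and Rps19bp1, and the lower ones were Rpl4 and Rpl23. Rps3a1, Rps26, Rpl4 and Rpl23 were named after their values had been seen. Rpl4 was among the most even of them, at 4999.7, 4904 and 5076 CPM with vehicle and 4846, 4663 and 4636 CPM with AOA.

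**Figure D2:**
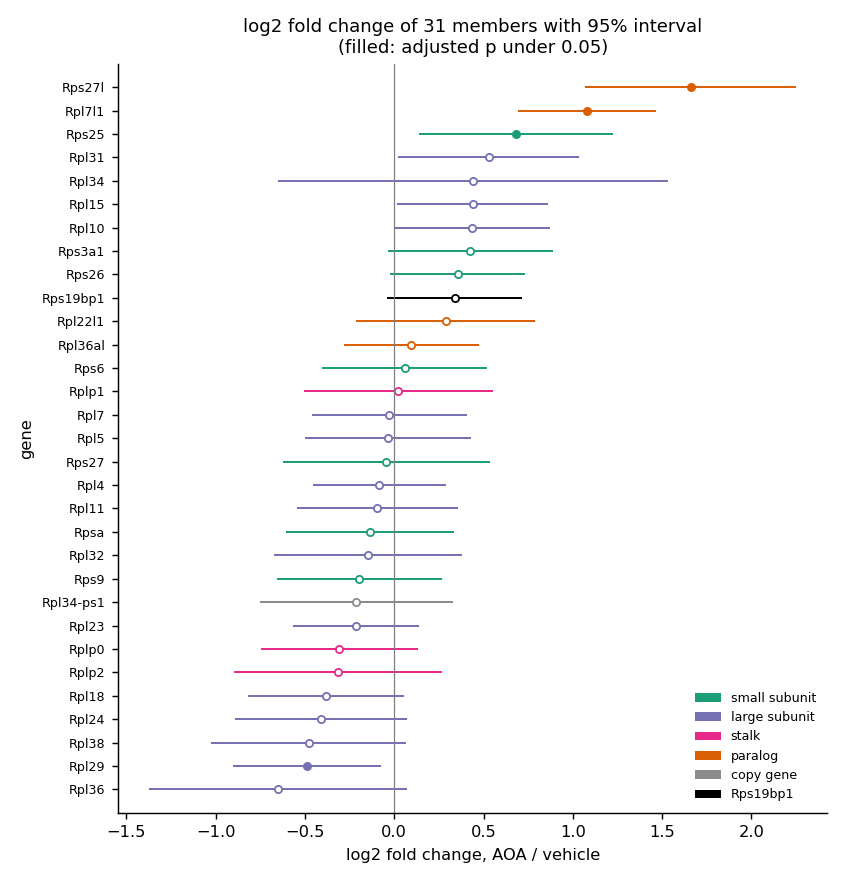
Log2 fold change (horizontal axis, AOA over vehicle) of 31 of the 87 tested members, those described in the text, in order of value, with the 95% interval of the edgeR fit as a line and the class as colour. Filled points passed an adjusted p of 0.05, which were Rps27l, Rpl7l1 and Rps25 above 0 and Rpl29 below 0.

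In the small subunit, 2 of 30 proteins were called, both higher, and the median log2 fold change was 0.02, with 15 above and 15 below 0. Rps25 (chr9:44407714-44410406) encodes a protein of the small subunit that some viral messages need for their translation. It was at 530.5, 694 and 629 CPM with vehicle and at 1383, 784 and 808 CPM with AOA, and every AOA library lay above every vehicle library. The log2 fold change was 0.68 (SE 0.24, edgeR adjusted p = 0.0369). Without AOA replicate 1 it was 0.37 (adjusted p = 0.0680) and no longer passed, and it was not called without vehicle replicate 1 or vehicle replicate 3 either. With the length trend removed it was 0.38 (adjusted p = 0.0620, and 0.0745 with the replicate block), not called.

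Rps6 (chr4:86854099-86857367), the protein that the S6 kinases phosphorylate, was at 949, 797 and 972 CPM with vehicle and at 1219.9, 811 and 799.9 CPM with AOA. AOA replicate 1 lay above all others and the remaining AOA libraries near vehicle replicate 2. Its log2 fold change was 0.06 (SE 0.20, 95% interval -0.40 to 0.51), and -0.17 without AOA replicate 1. Rpsa, which sits at the exit side of the small subunit and also serves as a laminin receptor, averaged 3211 ± 407 CPM with vehicle and 2922 ± 635 CPM with AOA (SD, n = 3 in each group), with a log2 fold change of -0.14, and -0.33 without AOA replicate 1. Rps3a1 and Rps26 had log2 fold changes of 0.43 and 0.36, and neither was called (edgeR adjusted p = 0.103 and 0.0966).

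In the large subunit, 1 of 42 proteins was called and the median log2 fold change was -0.10, with 12 above and 30 below 0. Rpl29 (chr9:106428889-106431568), a protein of the large subunit that mice can live without, was at 548, 416 and 532 CPM with vehicle and at 431, 323 and 312 CPM with AOA. AOA replicate 1 lay above vehicle replicate 2, so the groups overlapped, although AOA was lower in 3 of 3 mice. The log2 fold change was -0.49 (SE 0.18, edgeR adjusted p = 0.0468), close to the threshold. It was -0.65 without AOA replicate 1 (adjusted p = 0.0142), and the call was lost when any other library than AOA replicate 1 or vehicle replicate 2 was left out.

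Rpl36 (chr17:56610094-56614246), another protein of the large subunit, had the lowest log2 fold change of the members, -0.65 (SE 0.32, edgeR adjusted p = 0.112). Its values were 885, 422 and 684 CPM with vehicle and 612, 308 and 348 CPM with AOA, lower with AOA in 3 of 3 mice but overlapping between the groups. Rpl38, which in mouse embryos is needed for the translation of some Hox messages, was at 511, 365 and 500.4 CPM with vehicle and at 456, 261 and 271 CPM with AOA. Its log2 fold change was -0.48 (SE 0.24, edgeR adjusted p = 0.122). With the mouse as a replicate block Rpl36 and Rpl38 passed (edgeR adjusted p = 0.0107 and 0.0387), which made 7 calls, 4 higher and 3 lower (53.5% of all genes were called). Rpl24 and Rpl18 followed with log2 fold changes of -0.41 and -0.38, and neither was called with all 6 libraries. All 4 were called without AOA replicate 1, Rpl36 at -1.01, Rpl38 at -0.78, Rpl24 at -0.63 and Rpl18 at -0.56 (edgeR adjusted p = 0.0350, 0.0122, 0.0203 and 0.0197), and with the replicate block added Rpl24 and Rpl18 were not (adjusted p = 0.0576 and 0.0739). Rpl36 was also called without vehicle replicate 2 (-0.86) and was at -0.37 without vehicle replicate 1.

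At the other end of the large subunit stood Rpl31, Rpl15 and Rpl10. Rpl31 was at 224, 307 and 303 CPM with vehicle and at 537, 324 and 342 CPM with AOA, a log2 fold change of 0.53 (SE 0.22, edgeR adjusted p = 0.0706). Rpl15 and Rpl10, the latter among the last proteins to join the subunit, both had 0.44 (SE 0.19 each, edgeR adjusted p = 0.0732 and 0.0805). All 3 had separate ranges, with AOA replicate 1 well above the other 2 AOA libraries. Without it the values were 0.26, 0.23 and 0.25. Rpl5 and Rpl11, which with 5S RNA bind Mdm2 when ribosome assembly is disturbed, had log2 fold changes of -0.03 (95% interval -0.49 to 0.43) and -0.09 (-0.54 to 0.35).

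**Figure D3:**
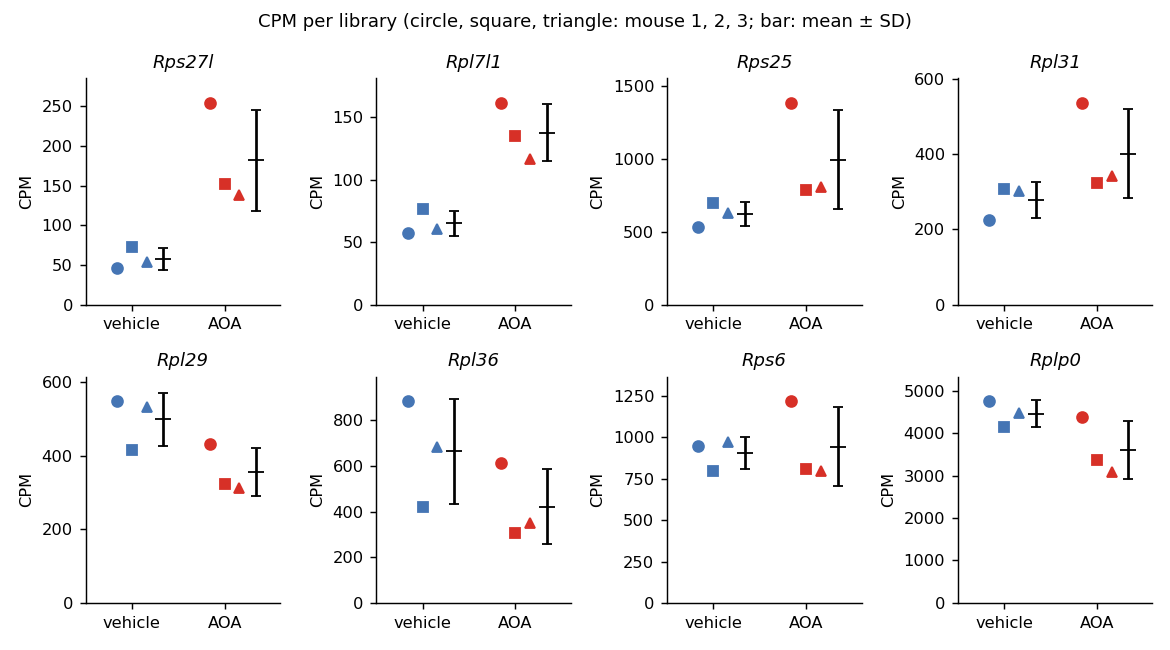
CPM (vertical axes, from 0) of 8 members in the vehicle libraries (blue) and AOA libraries (red). Circles, squares and triangles are mouse 1, 2 and 3, and bars show the mean with the SD. Rps27l, Rpl7l1, Rps25 and Rpl31 have AOA above vehicle in all libraries, and in each panel the circle of AOA replicate 1 is the highest AOA point.

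The stalk of the large subunit, built of Rplp0 and dimers of Rplp1 and Rplp2, recruits the elongation factors. None of the 3 was called. Rplp0, a common reference gene for quantitative PCR, was at 4759, 4135 and 4484 CPM with vehicle and at 4373, 3363 and 3078 CPM with AOA, with a log2 fold change of -0.31 (SE 0.19, 95% interval -0.74 to 0.13). Without AOA replicate 1 it was -0.47 (edgeR adjusted p = 0.0205), and in that fit with the replicate block -0.42 (adjusted p = 0.103), not called. Rplp1 and Rplp2 had log2 fold changes of 0.02 (95% interval -0.50 to 0.55) and -0.32 (-0.89 to 0.26), and the Rplp1 value was -0.22 without AOA replicate 1. That of Rplp2 was -0.56 without AOA replicate 1 and -0.070 without vehicle replicate 1.

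The balance between the subunits can be read within each library, without a scaling factor. Counts of large subunit and stalk genes divided by counts of small subunit genes gave ratios of 1.33, 1.31 and 1.32 with vehicle and of 1.14, 1.26 and 1.23 with AOA. The 2 groups did not overlap, at means of 1.32 ± 0.01 and 1.21 ± 0.06 (SD, n = 3 in each group). AOA replicate 1 had the lowest ratio, and the other AOA libraries also lay under every vehicle library. The ratio is of counts and has not been corrected for length.

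Without AOA replicate 1 the small and large subunits had median log2 fold changes of -0.27 and -0.30, and after removal of the length trend in a fit with the replicate block -0.22 and -0.37. Of the 21 members called lower without that library, 16 encode proteins of the large subunit or stalk, 4 encode proteins of the small subunit and 1 is a copy gene. With the length trend removed and the replicate block, 36 members were called, 3 higher and 33 lower, against 55.6% of all genes (27.6% higher and 28% lower). Of these 33, 24 encode proteins of the large subunit or stalk, 8 proteins of the small subunit and 1 is a copy gene. The lists shared 19 genes, 90.5% of the former and 57.6% of the latter. Both lists come from overlapping libraries, and without AOA replicate 1 but with the replicate block the members called lower were Rpl36, Rpl38 and Rpl29 (41.2% of all genes were called in either direction).

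Among the paralogs, Rps27l and Rpl7l1 rose while the proteins they resemble were not called. Rps27l (chr9:66944624-66949522) encodes a close relative of Rps27 that is known as a target of p53. It was at 45.6, 73.0 and 53.7 CPM with vehicle and at 254, 152 and 139 CPM with AOA, the highest log2 fold change of all members (1.66, SE 0.26, edgeR adjusted p = 0.000769). The lowest AOA library lay well above the highest vehicle library, and the value was 1.34 without AOA replicate 1. Rps27 itself had a log2 fold change of -0.05 (95% interval -0.62 to 0.53). Per kilobase, there were 2.93, 6.49 and 3.46 Rps27l reads per 100 Rps27 reads with vehicle and 13.3, 14.5 and 12.2 with AOA. Dividing by Rps27 brought AOA replicate 1 into the range of the other AOA libraries.

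Rpl7l1 (chr17:46773907-46782656), a relative of Rpl7 that takes part in ribosome assembly, was at 57.5, 76.6 and 60.7 CPM with vehicle and at 162, 135 and 116 CPM with AOA. The log2 fold change was 1.08 (SE 0.17, edgeR adjusted p = 0.000761), and 0.95 without AOA replicate 1. Per 100 Rpl7 reads, also per kilobase, there were 1.02, 1.43 and 1.02 Rpl7l1 reads with vehicle and 2.34, 2.77 and 2.40 with AOA. Rpl7 itself had a log2 fold change of -0.03. Only 2.98% of the 75-base stretches of Rpl7l1 and 7.26% of those of Rps27l occur in transcripts of other genes. For Rpl7 and Rps27 these shares were 37.8% and 42.4%. Reads from such stretches may have been lost, so the ratios are of reads counted and not estimates of message numbers. Rps27l and Rpl7l1 were called in 20 of 20 fits across the alternatives, Rps25 in 14 and Rpl29 in 13.

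The other paralogs were not called. Rpl22l1, which can take the place of Rpl22 in T cells, was at 184, 243 and 183 CPM with vehicle and at 336, 208 and 201 CPM with AOA, with a log2 fold change of 0.29 (SE 0.22). It was 0.010 without AOA replicate 1 and 0.47 without vehicle replicate 2. Per kilobase, there were 94.5, 162 and 94.3 Rpl22l1 reads per 100 of Rpl22 with vehicle and 174, 161 and 153 with AOA. Vehicle replicate 2 lay with the AOA libraries. Rpl36al, a retained copy of Rpl36a, had a log2 fold change of 0.10 (95% interval -0.28 to 0.47), and the ratio to Rpl36a kept between 38.4 and 43.6 per 100 in all 6 libraries. Shared 75-base stretches made up 72.3% of those of Rpl36a and 12.4% of those of Rpl36al. They made up 1.41% for Rpl22 and 33.9% for Rpl22l1, so these ratios too are of reads counted. With 3 libraries in each group an exact permutation test of such a ratio cannot go below p = 0.1, so no ratio can pass 0.05. Rpl39l, a paralog known from testis, had at most 19 counts in a library and was not tested.

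**Figure D4:**
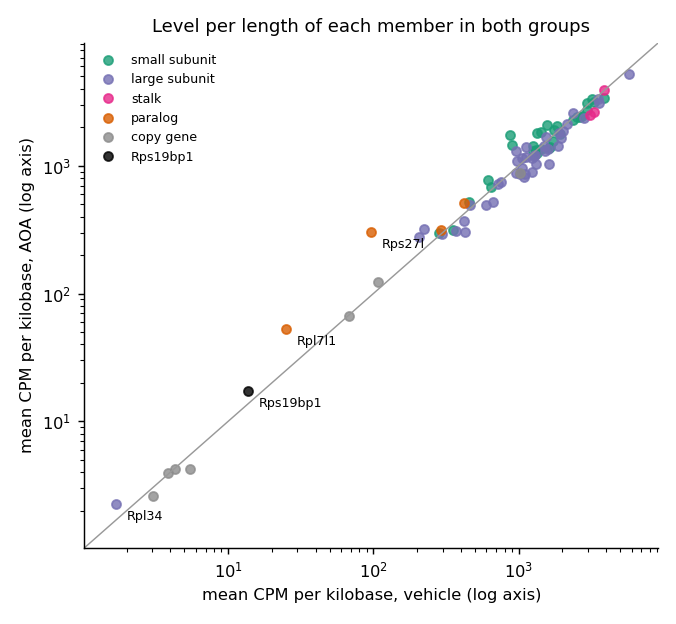
Mean CPM per kilobase of each tested member with vehicle (horizontal, log axis) and AOA (vertical, log axis), coloured by class, with the line of equality. Most points lie near the line at 1000 and above, the paralogs Rps27l and Rpl7l1 lie above it at lower levels, and Rpl34 and the copies Rps19-ps3, Rpl32l, Rps15a-ps4 and Rps15a-ps6 lie at the bottom, under 10 CPM per kilobase, while the copy Rpl34-ps1 lies among the subunit proteins.

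Levels per length lay mostly at the top of the transcriptome. The 75 proteins of the subunits and the stalk had a median of 1340 CPM per kilobase with vehicle and 1359 with AOA, against 10.7 and 10.6 for all tested genes, and 74 of the 75 lay above the 95th percentile of all genes. From the 10th to the 90th percentile they ran from 424 to 3160. Rpl32 was highest, at 5734 ± 695 CPM per kilobase with vehicle and 5180.5 ± 1555 with AOA, followed by Rps9 and Rplp1 at 3849.9 ± 416 and 3848 ± 709 with vehicle, which did not differ beyond their spread. The order was similar in both groups, with a Pearson correlation of the log2 levels of 0.983 and a Spearman correlation of 0.94 over these 75 genes, which share their libraries, depth and length values.

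Among these 75 proteins the lowest levels were those of Rpl34, Rpl15 and Rpl31. Rpl34 had 10 to 34 counts in a library, or 1.70 CPM per kilobase with vehicle, while the copy Rpl34-ps1 on chromosome 6 held 286 to 513 CPM. All 75-base stretches of the Rpl34-ps1 transcript (100%) occur in transcripts of other genes, so how counts were divided between the 2 is uncertain, and the level of Rpl34 is not an estimate of its message. Rpl15 and Rpl31 were at 205 ± 16.2 and 222 ± 37.3 CPM per kilobase with vehicle, over listed lengths of 1841 and 1253 bases. Across the 75 genes the median share of 75-base stretches found in other genes was 25.8%, and it was over 50% in 15 genes, Rps6, Rpl10 and Rpl36 among them. This share had a Pearson correlation of 0.034 with the level and of 0.0844 with the log2 fold change across these genes. The Spearman correlations were -0.14 and 0.0362. Stretches were pooled over most transcripts of a gene, so the share may differ from that of the message counted.

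The copy genes, which are annotated as genes of their own beside the protein they resemble, were not called. Their 7 tested members had a median log2 fold change of -0.04 and a range from -0.34 to 0.19. The remaining copy, Rps4l, had 6 to 15 counts per library and was not tested. Rps19bp1 averaged 11.4 ± 0.43 CPM with vehicle and 14.4 ± 1.36 CPM with AOA (SD, n = 3 in each group), with separate ranges and a log2 fold change of 0.34 (SE 0.17, edgeR adjusted p = 0.114).

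Ribosomal components that the symbol rule does not take were in the same range. Rps4x and Rack1, proteins of the small subunit, and Fau, which encodes a ribosomal protein fused to a relative of ubiquitin, had log2 fold changes of -0.02, -0.27 and -0.46, and none was called. Without AOA replicate 1, Rack1 and Fau were at -0.49 and -0.72 (edgeR adjusted p = 0.0136 and 0.0499), and neither was called in that fit with the replicate block (adjusted p = 0.0783 and 0.0616). Of 13 elongation factors and other genes with TOP messages, 1 was called higher and 2 lower (23.1% of the list, against 53% of all genes), with a median of -0.02. Eef2, which moves the ribosome along the message, fell from 10532 ± 328 to 6099 ± 1081 CPM (SD, n = 3 in each group), a log2 fold change of -0.79 (edgeR adjusted p = 0.00880). Eif3f, a subunit of initiation factor 3, fell (-0.52) and Eef1g, a subunit of elongation factor 1, rose (0.60). Both calls were lost when either vehicle replicate 1 or vehicle replicate 3 was left out, that of Eif3f also without AOA replicate 3 and that of Eef1g also without AOA replicate 2.

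The genes that build ribosomes gave other values than the proteins they assemble. Of 27 ribosome assembly genes, 21 were called higher (77.8%, against 26.2% of all genes) and none lower (26.8% of all genes), and their median log2 fold change was 0.98, against -0.02 over all tested genes. Nop58, Nop56 and Dkc1, core proteins of the small nucleolar particles that modify ribosomal RNA, rose by 1.91, 1.77 and 1.82. All 12 chaperones and importins that bring ribosomal proteins to the nucleolus were called higher (100%, beside the same 26.2% of all genes), with a median of 1.07. Among them Grwd1, the chaperone of Rpl3, rose from 9.35 ± 3.32 to 44.0 ± 2.27 CPM (SD, n = 3 in each group), a log2 fold change of 2.23 (edgeR adjusted p = 9.31e-05). Ipo5 and Heatr3, which carry Rpl5 among others, rose by 1.76 and 1.73. The median excess of AOA replicate 1 over the other AOA libraries was -0.17 in the assembly genes and -0.19 in the chaperones and importins. Vehicle replicate 2 stood above the mean of the other vehicle libraries by medians of 0.49 and 0.52 on the log2 scale, against 0.0053 over all tested genes.

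Mitochondrial ribosomal proteins, taken by the prefixes Mrpl and Mrps, are short as well, with a median length of 1066 bases. Of 78 tested, 51 were called higher (65.4%, against 26.2% of all genes) and 1, Mrpl9, lower, and the median log2 fold change was 0.69. AOA replicate 1 was the highest AOA library in 72 of the 78, by a median excess of 0.48. The median difference between AOA and vehicle was 1.01, 0.49 and 0.53 in mouse 1, 2 and 3, above 0 in each, whereas it changed sign between mice for the cytosolic members.

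Of 10 genes that control ribosomal protein messages, 2 were called higher and 3 lower, 50% of the list beside 53% of all genes. Larp4, which binds poly(A) tails and stabilises ribosomal protein messages, rose by 1.19 (edgeR adjusted p = 0.000483), and Myc rose by 0.45 (edgeR adjusted p = 0.0331), a call lost when any library but vehicle replicate 2 or AOA replicate 1 was left out. Rptor, a subunit of mTOR complex 1, Maf1, a repressor of RNA polymerase III, and the S6 kinase gene Rps6kb2 had log2 fold changes of -0.76, -0.62 and -0.61 and were called lower, Rps6kb2 not so without vehicle replicate 1, AOA replicate 2 or AOA replicate 3. Larp1, the repressor that binds the TOP tract, and Mtor were not called (0.53 and -0.20).

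**Figure D5:**
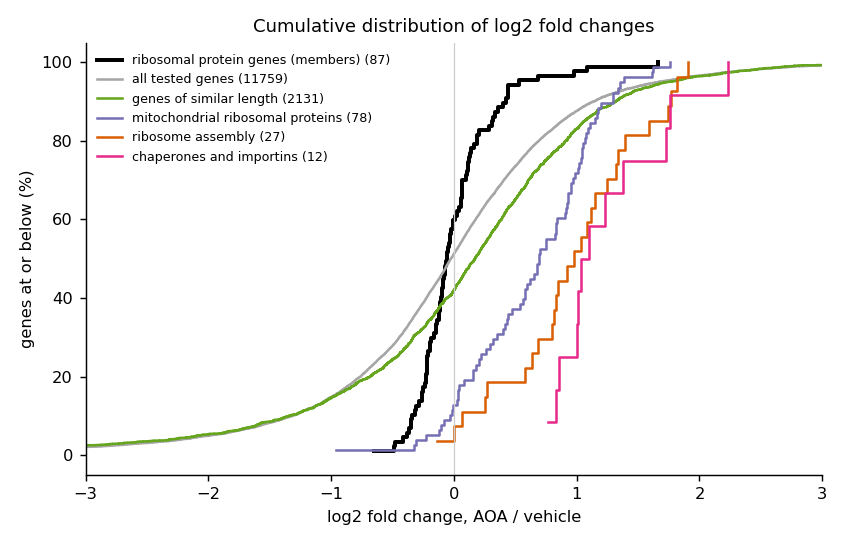
Cumulative share of genes (vertical axis, percent) at or below each log2 fold change (horizontal axis, AOA over vehicle) for the members, all tested genes, genes of similar length and 3 related lists. The members rise steeply around -0.06, while the medians of mitochondrial ribosomal proteins, assembly genes and chaperones and importins lie at 0.69, 0.98 and 1.07.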

How the data were processed

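RNA of 3 vehicle and 3 AOA cultures was sequenced from stranded mRNA libraries as paired reads. Per the labels, processing used bcl2fastq, STAR, featureCounts and DESeq2 with the mm10 genome, with no versions given. The authors deposited raw counts of uniquely mapped reads per gene with a length column. The sources used here state neither the annotation nor the strand setting of the counting. Reads that map to more than 1 place, such as those from a gene and its pseudogenes, may have been lost.

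Counts were analysed in R 4.3.3. Genes were kept by filterByExpr of edgeR 4.0.16 (minimum count 10), scaled by TMM and tested by the robust quasi-likelihood test with no covariate, with Benjamini-Hochberg adjustment over all genes tested at 0.05. The prior count of log2 CPM values was 2. A row without a gene name (1 row) was left out. Every column of per-sample values had a sample. The spread between replicates exceeded sampling noise (chi-square per gene 10 to 70.8). Cultures of a group came from separate mice. With total counts of 12881962 to 21997078, the counting error of most members is small beside the spread between cultures.

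Alternatives were DESeq2 1.42.0, voom of limma 3.58.1, other scaling (median-of-ratios, total counts, TMM without the members), other filters (none, or 10 CPM in 3 libraries), a replicate block for the mouse, a length trend removed per library (loess with a span of 0.5, fitted on other genes, with and without the block) and each library left out. Added after seeing the data were a scale set by the members alone, and the block without AOA replicate 1. The pairing comes from the labels, which give the same mouse donors to both groups, and deviations from the group means correlated within each mouse over all genes (r = 0.0868, 0.189 and 0.194). The steps were tested on simulated data.

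The members and lists were chosen with earlier results of these data known, so no list was tested as a set. Named were the 5 highest and 5 lowest subunit proteins by log2 fold change (among those with 10 CPM or more in the group with the higher mean), Rplp0, Rplp1, Rplp2, Rpsa, Rps6, Rpl5, Rpl11, the paralogs, Rps19bp1, members called against the main direction, the 3 highest and 3 lowest levels per kilobase, and up to 3 called genes per direction of other lists. Results of some genes that this rule takes are not reported here. Coordinates, from RefSeq GRCm38.p6, were found for 89 of 89 members. Shared 75-base stretches were counted in GENCODE vM21 transcripts of genes at other positions, with Python 3.11.15.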

Additional observations from a re-analysis of the deposited data

How the results depend on the processing

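The number of members called, 5 (4 higher and 1 lower), was 10 with DESeq2 (9 higher), 32 with the length trend removed (29 lower) and 36 in the same fit with the replicate block for the mouse (33 lower). With the replicate block alone 3 were called lower, as with the block and without AOA replicate 1. There were 0 called lower by edgeR without a filter on low counts (25.9% of all genes) and with the scale set by the members alone (15.8% of all genes, and 18.9% with the replicate block). The latter scale by design holds the typical member near no change, so it cannot show a shift common to the members. Their median log2 fold change with it was 0.016, and 0.0056 with the block. Over the proteins of the subunits and the stalk only, 3 were called, 2 of them higher. With 1 library left out, the calls ran from 3 to 24 in all, from 3 to 7 higher and from 0 to 21 lower, with the most without AOA replicate 1. The median log2 fold change of the members ran from -0.28 to 0.06 with 1 library left out, and its distance from that of genes of similar length, -0.23, from -0.33 to -0.16. That distance was -0.38 with the filter of 10 CPM in 3 libraries. The difference in the share of counts, -0.28 percentage points, ran from -1.51 to 0.34 with 1 library left out and was 0.34 without AOA replicate 2 and 0.32 without AOA replicate 3. The cause of these shifts was not tested. Fits that leave out a library use 2 libraries in a group.

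Of the named genes, 8 that were not called in the 6 libraries changed sign. With 1 library left out, Rplp1 ran from -0.22 (without AOA replicate 1) to 0.17, Rps6 from -0.17 to 0.17, Rpl5 from -0.28 to 0.097, Rpl11 from -0.30 to 0.024, Rpl36al from -0.094 to 0.20, Rpl34 from -0.16 to 0.67 and Rps4x from -0.13 to 0.055, each lowest without AOA replicate 1. Rplp1 was also -0.0058 with the 10 CPM filter, -0.29 with the length trend removed (-0.27 with the replicate block) and -0.083 without AOA replicate 1 and with the block. In the last fit Rps6 was -0.13, Rpl22l1 -0.043, Rpl36al -0.076 and Rpl34 -0.055. With the length trend removed Rps6 was -0.090 (-0.095 with the block), Rpl22l1 -0.034 (-0.020 with the block) and Rpl36al -0.20 (also with the block). With the scale set by the members alone Rpl5 was 0.021 (0.023 with the block) and Rps4x 0.072 (0.067 with the block). Without a filter Rps4x was 0.014. Over all alternatives 9 named genes lost a call at least once and 14 gained one. With all 6 libraries and no length correction, the replicate block changed no other call of a member than those of Rpl36 and Rpl38, while it took the members called from 24 to 6 without AOA replicate 1 and from 32 to 36 with the length trend removed.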
